A study of Mus musculus with 10 samples.

Results

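The genes described here make, pack and take up noradrenaline or mark the neurons that do so: Dbh, Th, Ddc, Slc18a2, Slc6a2, Phox2a, Npy and Snap25. They were chosen by name, and all 8 were found among the 54532 genes of the gene table, each as the row with most counts for its symbol. The tissue was the part of the left atrium around the pulmonary veins of adult mice, with the appendage and all but a short stretch of vein cut away, and its RNA was sequenced in bulk. There were 6 libraries of Tbx5 conditional mutants (CKO) and 4 of controls (Ctrl). CKO mice were R26creERT2/creERT2; Tbx5 flox/flox and Ctrl mice were R26creERT2/creERT2; Tbx5+/+, so that mice of both groups carried 2 copies of a Cre recombinase that tamoxifen switches on. The Cre gene sits at the Rosa26 locus, which is active in nearly all cell types, so the deletion was not limited to heart muscle. All mice were injected with tamoxifen on 3 days at 6 weeks of age and were 7 weeks old at collection, 1 week after the treatment. Tbx5 encodes a T-box transcription factor needed for the rhythm of the atria.

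Sympathetic neurons make noradrenaline in a chain of steps. Tyrosine hydroxylase (Th) and aromatic L-amino acid decarboxylase (Ddc) turn tyrosine into dopamine, the vesicular monoamine transporter (Slc18a2) carries dopamine into vesicles, and dopamine beta-hydroxylase (Dbh) turns it into noradrenaline inside them. The noradrenaline transporter (Slc6a2) takes the released transmitter back up. The cell bodies of sympathetic neurons lie outside the heart in the paravertebral chain, whereas the fat around the pulmonary veins holds small intrinsic ganglia whose neurons are mostly cholinergic, and some of these carry noradrenergic enzymes as well.

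Dbh was the only 1 of the 8 genes that changed past the threshold, an adjusted p of 0.05, and it was lower in CKO libraries, at 0.250 of the Ctrl level. Of the 8 genes 6 had enough counts to be tested, and of all 17752 genes tested 2.80% passed, 1.26% as lower in CKO. Slc6a2 had a lower level in every CKO library than in any Ctrl library but did not pass. Such a lack of overlap held for 5.72% of tested genes, for 2.70% with CKO lower, and among the 6 for Dbh and Slc6a2. Snap25, Ddc, Npy, Th and Phox2a overlapped between the genotypes and were highest in the library Ctrl 4, whose neuronal genes as a whole stood far above those of the other libraries. Most Dbh reads lay in its last exon, and the genotypes differed in that exon taken by itself, a test not independent of that of the whole gene. Over the exons before the last the genotypes overlapped, and Dbh did not pass there (exact permutation test, adjusted p = 0.0857).

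Snap25 encodes the SNAP-25 protein of the membrane fusion machinery and is the most general neuronal marker of the 8. Its exon 5 exists in 2 alternative copies that lie side by side, of which a transcript uses either. The upstream copy is known as the form of embryonic and neuroendocrine tissue and the downstream copy as the main form of adult brain. Both are shown because they are where the Snap25 transcripts differ. They lie on the plus strand of GRCm38, the build of the files, at chr2:136769743-136769860 for the upstream copy and chr2:136770057-136770174 for the downstream copy, and are coding sequence. They were read from the GENCODE transcripts of that build, and capitals mark the 31 of 118 bases at which the copies differ.
Upstream copy: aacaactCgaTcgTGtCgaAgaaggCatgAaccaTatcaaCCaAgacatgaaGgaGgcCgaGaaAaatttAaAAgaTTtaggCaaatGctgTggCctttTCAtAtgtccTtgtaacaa
Downstream copy: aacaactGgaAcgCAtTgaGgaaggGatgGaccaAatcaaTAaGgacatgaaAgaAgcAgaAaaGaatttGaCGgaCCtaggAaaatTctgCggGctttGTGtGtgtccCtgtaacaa

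Coverage, in mean reads per base, was seen over these copies in 4 libraries. In CKO 2 it was 2.74 over the upstream and 2.54 over the downstream copy, in CKO 3 it was 1.83 and 2.09, and in CKO 4 it was 3.11 and 2.1. In Ctrl 4 it was 13.0 over the upstream and 6.19 over the downstream copy. The upstream copy thus held 51.8%, 46.7% and 59.7% of the coverage in CKO 2, 3 and 4, and 67.8% in Ctrl 4. The files' own assignment of reads to whole transcripts gave other values: the transcript with the upstream copy held 16.1%, 22.9% and 22.6% of Snap25 in CKO 2, 3 and 4, and 9.89% in Ctrl 4. Ctrl 4 was thus highest by coverage of the copies and lowest by assigned transcripts, so the files do not settle the share of each form. The other 6 libraries had no coverage over either copy, and with 1 Ctrl library covered the genotypes were not compared.

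Facts of the whole series that touch these genes are the following. Total counts ran from 8963537 to 10040808 in CKO libraries and from 8602794 to 9466787 in Ctrl libraries, so that a count of 3, the limit that a count of 0 allows, equals 0.303 to 0.339 CPM, counts scaled to a fixed library size. Coverage of Tbx5 exon 3, the exon that the floxed allele loses, was 0.464 ± 0.148 of the library's median Tbx5 exon in CKO and 1.09 ± 0.103 in Ctrl (SD, n = 6 and n = 4). The whole gene had 167 to 425 CPM in CKO and 89.6 to 159 CPM in Ctrl (log2 fold change 1.00, edgeR adjusted p = 0.101). Tbx5 passed in 2 of 23 alternatives, DESeq2 (adjusted p = 0.00963) and edgeR with the Xist level as a covariate (adjusted p = 0.0133). It also passed in the authors' deposited table for this region (log2 fold change 0.99, false discovery rate 0.0117). The airway gene Scgb1a1 reached 1452 CPM in CKO 4 and 862 CPM in Ctrl 3, and no other library had more than 42.0 CPM. B cell and thymus genes summed to 97.3 CPM in CKO 4, 82.3 CPM in Ctrl 3 and 157 CPM in Ctrl 4, and to at most 8.62 CPM elsewhere. Xist, the transcript of the inactive X chromosome, was at 1004 CPM or more in CKO 1, 2 and 3 and Ctrl 1 and 2, and at most at 6.44 CPM in the other 5 libraries. Of 14 atrial muscle genes 9 were lower and 1 was higher in CKO libraries, with Sbk3, a kinase-like gene of heart muscle, at 6.59 ± 3.62 CPM in CKO and 284 ± 58.0 CPM in Ctrl.

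**Figure D1:**
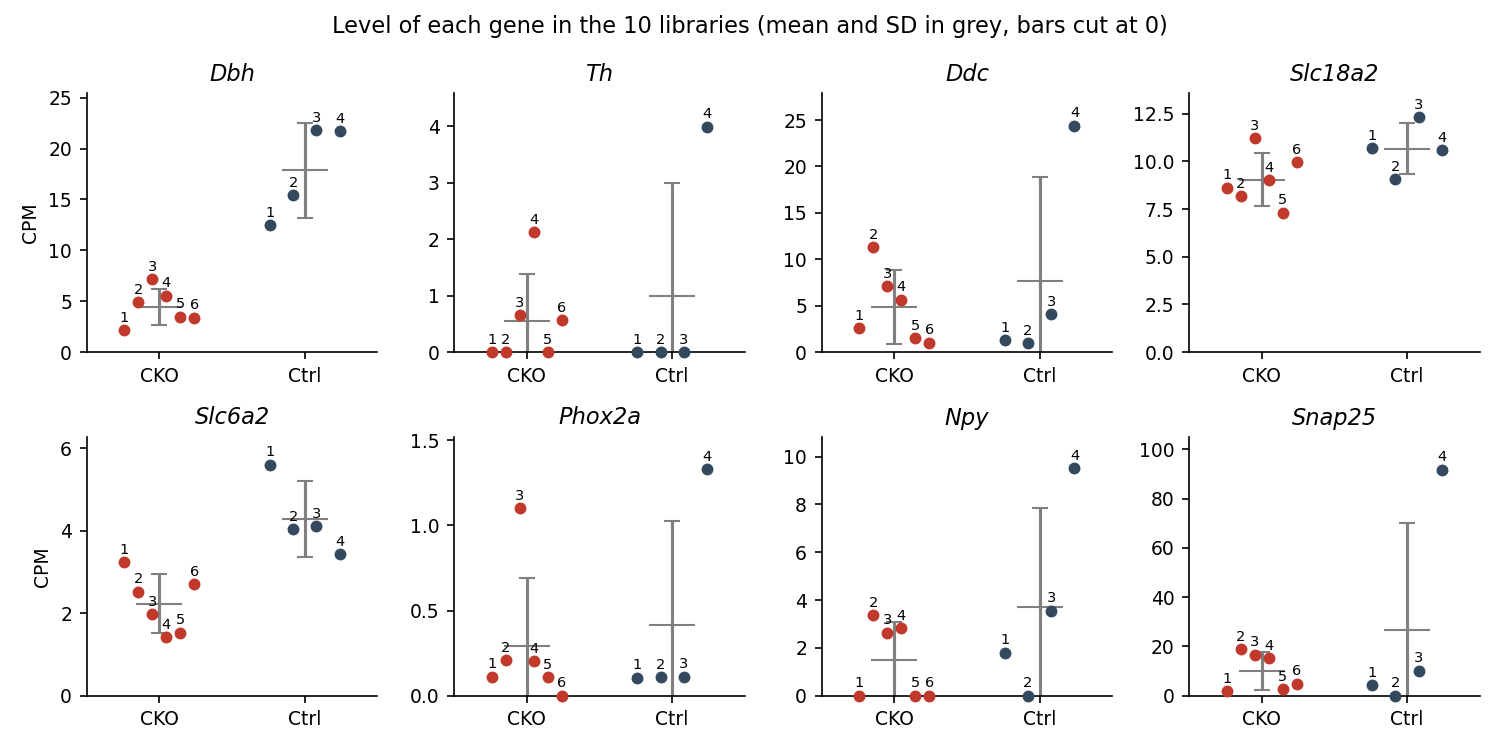
Level of the 8 genes in CPM (vertical axis) in each CKO library (red, left) and Ctrl library (blue, right), numbered by replicate, with the mean and SD in grey. Dbh and Slc6a2 show no overlap between genotypes, whereas Snap25, Ddc, Npy, Th and Phox2a have their highest value in Ctrl 4.

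Th, the rate-limiting enzyme of the pathway, at chr7:142892752-142931128 on the minus strand, was barely detected. It had 0.659, 2.12 and 0.565 CPM in CKO 3, 4 and 6, and was listed at 0 in CKO 1, 2 and 5. Among Ctrl libraries it had 3.99 CPM in Ctrl 4 and was listed at 0 in Ctrl 1, 2 and 3, where a count of 0 allows up to 0.317, 0.328 and 0.333 CPM. All Ctrl reads of Th, 36 counts, thus came from the library with most neuronal RNA. CKO libraries held 32 counts, with 6, 21 and 5 in CKO 3, 4 and 6. In CKO 3 and 6 all coverage of Th was assigned to the longer transcript ENSMUST00000105929, and in CKO 4 and Ctrl 4 to ENSMUST00000000219. The gene fell under the filter on low counts and was not tested. Ddc, at chr11:11814101-11898144 on the minus strand, acts after Th and also occurs outside neurons. It had 2.57, 11.3, 7.14, 5.66, 1.53 and 1.02 CPM in CKO 1 to 6, and 1.27, 0.983, 4.11 and 24.4 CPM in Ctrl 1 to 4. Ctrl 4 was highest and CKO 2, 3 and 4 came next, and the genotypes overlapped. The log2 fold change of Ddc was -0.65 (SE 0.88, adjusted p = 0.745), and without Ctrl 4 it was 1.20, so that its direction rested on that library.

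The files assign Ddc to different transcripts, but few reads bear on its start sites. In Ctrl 4 83.0% of its coverage was assigned to the transcript ENSMUST00000109659, which has a downstream start, and in every other library none was, although a shorter transcript with a start close to it held 4.57% to 11% in CKO 1 to 4. The first exon of ENSMUST00000109659 had coverage of 0.0844 in Ctrl 4 and 0 elsewhere, and the first exon of the longer transcript had 0 in all 10 libraries. Support from reads over the first exons was therefore slight in Ctrl 4 and nil elsewhere. An antisense gene of unknown role, 1700042O10Rik, shares 17199 bases of the Ddc locus and had 0 counts in every library.

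Dbh had 2.13, 4.93, 7.14, 5.56, 3.49 and 3.39 CPM in CKO 1 to 6, and 12.5, 15.4, 21.8 and 21.7 CPM in Ctrl 1 to 4. The highest CKO library lay below the lowest Ctrl library. Dbh averaged 4.44 ± 1.80 CPM in CKO and 17.8 ± 4.66 CPM in Ctrl (SD, n = 6 and n = 4), a log2 fold change of -2.00 (SE 0.30, edgeR quasi-likelihood adjusted p = 0.00619). In bulk tissue, fewer cells that hold the transcript and less transcript in each such cell cannot be told apart. The last exon held 89.6% of the reads of Dbh, and over the exons before it the genotypes overlapped. In Ctrl 2 the last exon had 15.3 CPM and the exons before it had 0. A lower level of the transcript over its full length was therefore not shown. Whether the reads of the last exon came from the full Dbh transcript was not tested.

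The lower level of Dbh was seen both among libraries with high Xist and among those with low Xist. Among libraries with high Xist, Dbh had 2.13, 4.93 and 7.14 CPM in CKO 1, 2 and 3, against 12.5 and 15.4 CPM in Ctrl 1 and 2. Among those with low Xist it had 5.56, 3.49 and 3.39 CPM in CKO 4, 5 and 6, against 21.8 and 21.7 CPM in Ctrl 3 and 4. Without the airway-rich libraries CKO 4 and Ctrl 3 the log2 fold change was -1.94 (adjusted p = 0.0222), and with the mean level of the neuronal genes as a covariate, a fit chosen after seeing the data, it was -1.96 (adjusted p = 0.00315). With the glial level as a covariate it was -1.71 (adjusted p = 0.0186). The mean log2 level of the neuronal genes was 4.71 in Ctrl 4 and at most 2.93 in CKO libraries, in CKO 2. No CKO library could thus be set beside Ctrl 4 at a like neuronal level. Over 23 alternative fits across all genes the log2 fold change of Dbh ran from -2.19 to -1.71 and passed in each, with a highest adjusted p of 0.0459.

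**Figure D2:**
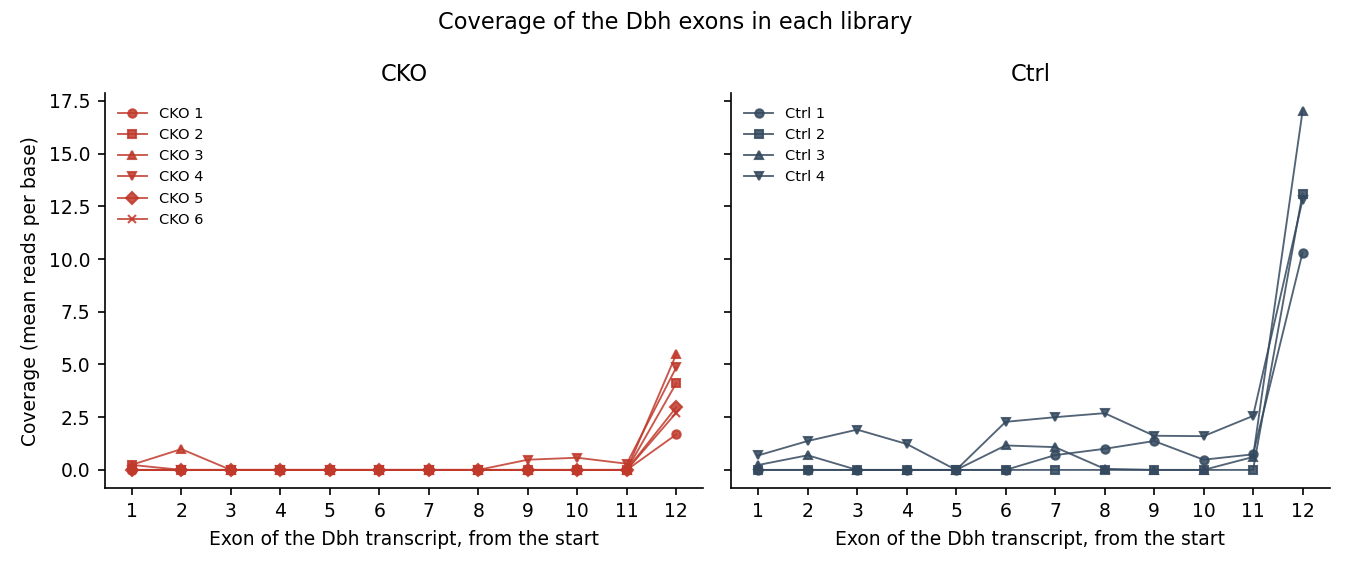
Coverage (mean reads per base, vertical axis) of the 12 exons of Dbh in order from the start (horizontal axis) in each CKO library (left) and Ctrl library (right). Coverage is at or near 0 over most exons and rises at exon 12, to 1.68 to 5.48 in CKO and 10.3 to 17.0 in Ctrl libraries, and Ctrl 4 alone has coverage over nearly all other exons.

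The reads of Dbh were gathered at its end. The gene lies at chr2:27165233-27183200 on the plus strand of GRCm38 and has 12 exons, the last of which (chr2:27182666-27183200) is 535 bases long, with 132 coding bases and 403 bases of 3′ untranslated region. This exon held 89.6% of the reads of all libraries, and its coverage was 32.8 times that of the other exons, against a median of 1.19 over 13861 tested genes with 3 or more exons, of which 3.19% had a ratio as high. No other gene of the files' annotation shares bases with Dbh. Split after this was seen, the last exon had 2.01, 4.62, 6.45, 5.26, 3.47 and 3.28 CPM in CKO 1 to 6, and 11.6, 15.3, 20.2 and 15.2 CPM in Ctrl 1 to 4. The genotypes did not overlap, with a log2 ratio of -1.90 (exact two-sided permutation test over 210 relabellings, p = 0.00476, the smallest that 6 against 4 allows, and 0.0143 after adjustment over 6 such values). As this exon holds most reads of the gene, the test is not independent of that of the whole gene. Exons 1 to 11 together had 0.315, 0.659 and 0.303 CPM in CKO 2, 3 and 4 and 0 in CKO 1, 5 and 6, against 0.849, 0, 1.55 and 6.44 CPM in Ctrl 1 to 4. These exons overlapped between the genotypes (log2 ratio -3.38, exact permutation test, adjusted p = 0.0857). Without Ctrl 4 the log2 ratio was -1.91 (exact permutation test, adjusted p = 0.186). Ctrl 4 was the highest of all libraries over exons 1 to 11, but was level with Ctrl 2 over the last exon.

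Slc18a2, at chr19:59260878-59296012 on the plus strand, is the transporter that fills vesicles with monoamines in neurons, mast cells and platelets. It had the smallest spread relative to its mean of the 8 genes in both genotypes, with 8.62, 8.19, 11.2, 9.0, 7.31 and 9.94 CPM in CKO 1 to 6, and 10.7, 9.07, 12.3 and 10.6 CPM in Ctrl 1 to 4. The genotypes overlapped, with a log2 fold change of -0.24 (SE 0.15, adjusted p = 0.458). Ctrl 4 was not set apart, at 10.6 CPM against 9.07 to 12.3 CPM in the other Ctrl libraries. Mast cell genes summed to 52.0 to 96.3 CPM in CKO and 38.6 to 93.5 CPM in Ctrl libraries, and platelet genes to 46.9 to 84.1 CPM in CKO and 32.2 to 61.7 CPM in Ctrl libraries, with 0 genes of either list called by edgeR or DESeq2, with 0 and 1 genes at an unadjusted p under 0.05, and their part in the level of Slc18a2 was not tested.

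Slc6a2, at chr8:92960079-93001667 on the plus strand, returns noradrenaline to the cell. It had 3.24, 2.52, 1.98, 1.42, 1.53 and 2.71 CPM in CKO 1 to 6, and 5.60, 4.04, 4.11 and 3.43 CPM in Ctrl 1 to 4. The highest CKO library, CKO 1, lay just under the lowest Ctrl library, Ctrl 4, so the genotypes did not overlap. Its log2 fold change was -0.94 (SE 0.27) and missed the threshold in edgeR (adjusted p = 0.102), while DESeq2 called it (adjusted p = 0.0402). Leaving out any library kept the value between -1.08 and -0.79.

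Reads of both transporters lay in the last exon as those of Dbh did. The last exon held 93.7% of the reads of Slc6a2, at 8.08 times the coverage of the other exons, and 90.9% of those of Slc18a2, at 7.20 times. Ratios as high were found in 5.69% and 6.16% of genes. The last exon of Slc6a2 alone had 1.42 to 2.71 CPM in CKO and 3.17 to 5.49 CPM in Ctrl libraries, a log2 ratio of -0.90 that repeats the lack of overlap of the whole gene, and that of Slc18a2 had 6.11 to 9.88 CPM in CKO and 7.98 to 11.4 CPM in Ctrl libraries, which overlapped. In contrast Snap25, Npy and Ddc had ratios of 1.87, 2.07 and 1.52, and the last exon of Th held 32.2% of its reads.

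Phox2a, at chr7:101818313-101822726 on the plus strand, is a homeodomain factor needed to form noradrenergic neurons. It had 1, 2, 10, 2, 1 and 0 counts in CKO 1 to 6, and 1, 1, 1 and 12 counts in Ctrl 1 to 4, and was too low to test. CKO 3 and Ctrl 4 held most of these counts. Of its reads 96.3% lay in the last exon, whose end shares 95 bases with Inppl1, a phosphatase gene on the other strand with a mean of 100.2 CPM in CKO and 150.2 CPM in Ctrl libraries. The files were made with a setting for reads of known strand, whereas the kit named in the labels does not mark strand, so reads of such overlapping genes may not be told apart.

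Npy, at chr6:49822710-49829507 on the plus strand, encodes neuropeptide Y, which sympathetic neurons release together with noradrenaline. It had 3.36, 2.64 and 2.83 CPM in CKO 2, 3 and 4 and was listed at 0 in CKO 1, 5 and 6, against 1.80, 0, 3.55 and 9.52 CPM in Ctrl 1 to 4. Both genotypes held libraries at 0, and Ctrl 4 was highest. The log2 fold change was -1.32 (SE 1.17, adjusted p = 0.599), and -0.26 without Ctrl 4. Its receptor gene Npy1r, which heart muscle and vessels also express, averaged 3.90 ± 1.14 CPM in CKO and 6.55 ± 0.799 CPM in Ctrl (adjusted p = 0.109).

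Snap25, at chr2:136713453-136782428 on the plus strand, had the widest range in CPM of the 8 genes. It had 1.90, 18.9, 16.6, 15.1, 2.73 and 4.86 CPM in CKO 1 to 6, and 4.33, 0, 10.1 and 91.8 CPM in Ctrl 1 to 4. CKO 2, 3 and 4 lay above Ctrl 1, 2 and 3, and Ctrl 4 lay above all. The log2 fold change was -1.40 (SE 1.09, adjusted p = 0.543) with all libraries, and 1.06 without Ctrl 4. In the same order of libraries, the 22 pan-neuronal genes of a list summed to 60.3, 195, 145, 151, 66.8 and 62.7 CPM in CKO, and to 71.0, 69.6, 111 and 628 CPM in Ctrl. Cholinergic genes summed to 29.5, 74.4, 64.2, 57.4, 33.5 and 40.8 CPM in CKO, and to 43.3, 36.4, 56.7 and 251 CPM in Ctrl. The libraries rich in Snap25 were thus rich in both sums, as in Slc5a7, the choline transporter, at 18.3, 20.6 and 16.9 CPM in CKO 2, 3 and 4 and 94.5 CPM in Ctrl 4.

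**Figure D3:**
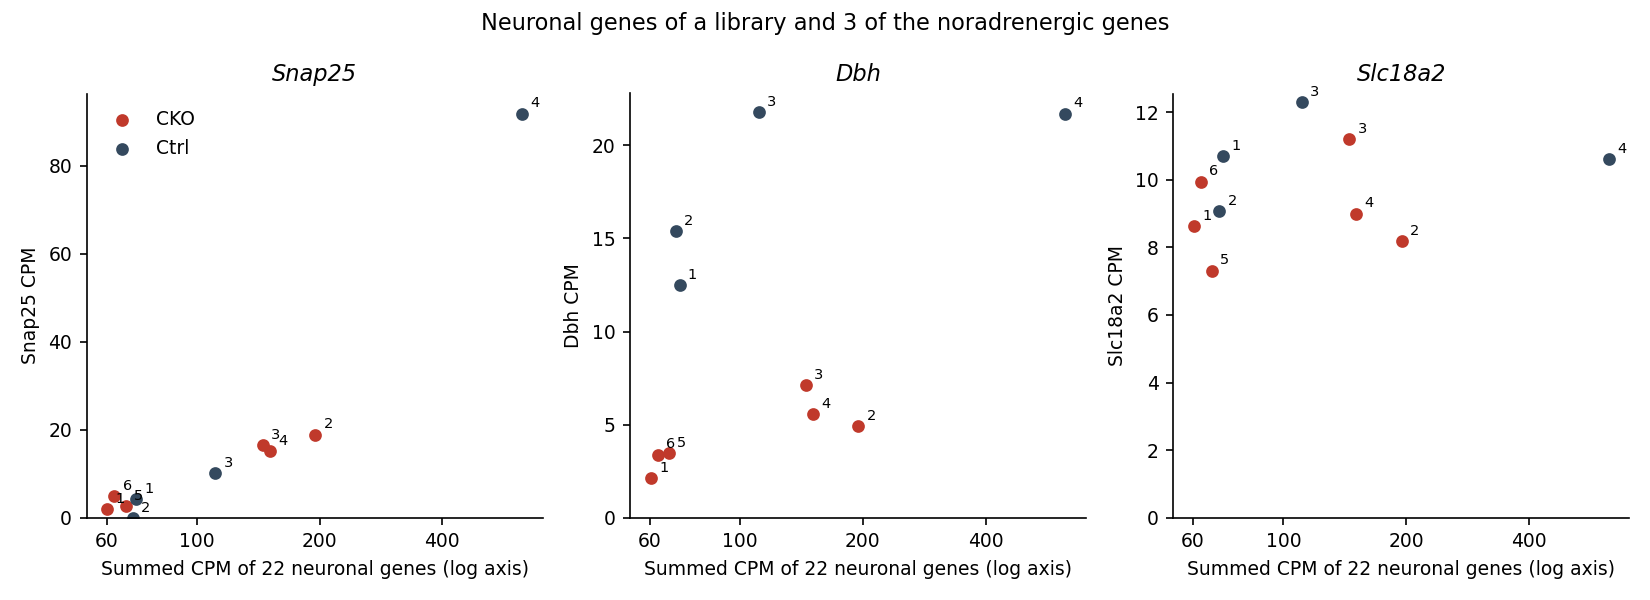
Level of Snap25, Dbh and Slc18a2 (CPM, vertical axes) against the summed CPM of 22 pan-neuronal genes (horizontal log axis) in CKO (red) and Ctrl (blue) libraries, numbered by replicate. Snap25 climbs with the neuronal sum to 91.8 CPM in Ctrl 4, whereas Dbh separates by genotype among libraries with sums up to 195 CPM, beyond which there is Ctrl 4 alone, and Slc18a2 stays between 7.31 and 12.3 CPM.

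Ddc, Npy and Snap25 varied together over the 10 libraries. Of 15 pairs of the 6 tested genes, 3 passed after adjustment, all among these genes. On log2(CPM + 0.1), Ddc and Snap25 had a Pearson r of 0.81 (permutation test, adjusted p = 0.0202) and a Spearman rho of 0.88 (adjusted p = 0.0211), and r was 0.70 without the 2 libraries farthest from the median. Ddc and Npy had an r of 0.81 (adjusted p = 0.0419) and a rho of 0.82 (adjusted p = 0.0323), with r at 0.72 without the farthest libraries. Npy and Snap25 had an r of 0.79 (adjusted p = 0.0174) and a rho of 0.85 (adjusted p = 0.0229), with r at 0.80 without them. The points share library preparation and depth, and the values at 0 rest on the added 0.1.

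Dbh and Slc6a2 separate by genotype, so their relation to the neuronal genes was read within the 6 CKO libraries, a choice made after seeing the data. There Dbh and Snap25 had an r of 0.91 (exact permutation test, p = 0.0153, 0.0667 after adjustment over 8 relations) and a rho of 0.77 (p = 0.103, 0.350 after adjustment). Without CKO 1 and CKO 3, the libraries farthest from the median of Dbh, r was 0.91. The last exon of Dbh alone gave an r of 0.90 (adjusted p = 0.0667), which nearly repeats the value of the whole gene because that exon holds most of its reads. Slc6a2 and Snap25 had an r of -0.32 (adjusted p = 0.674) in the same libraries. None of the 8 relations passed after adjustment. With 4 Ctrl libraries no correlation was computed, but Dbh had 15.4 CPM in Ctrl 2, where Snap25, Npy and Th were listed at 0, and 21.7 CPM in Ctrl 4, where all of them were highest.

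**Figure D4:**
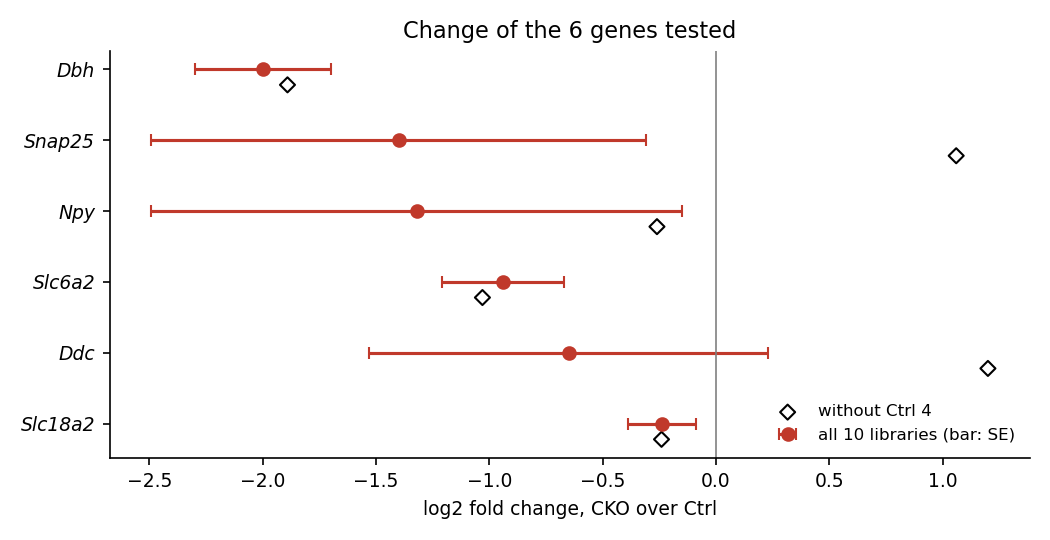
log2 fold change of CKO over Ctrl (horizontal axis) for the 6 genes tested, with all 10 libraries (red circles, bars are standard errors) and without Ctrl 4 (open diamonds). Dbh, Slc6a2 and Slc18a2 keep their direction without Ctrl 4, whereas Snap25 and Ddc change sign, to 1.06 and 1.20.

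Per unit of length, in TPM, a share of all transcripts, the order of the genes differed between the groups. In CKO libraries Snap25 was highest with a mean level of 10.5 ± 8.78 TPM, then Ddc with 5.42 ± 4.73, Npy with 5.10 ± 5.63, Slc18a2 with 4.46 ± 0.955 and Dbh with 3.27 ± 1.51 TPM (SD, n = 6). In Ctrl libraries Snap25 had a mean level of 29.9 ± 51.6 TPM, then came Dbh with 14.4 ± 3.96, Npy with 13.9 ± 16.7, Ddc with 10.2 ± 16.3 and Slc18a2 with 5.74 ± 0.625 TPM (SD, n = 4). Ctrl 4 set the first place of Snap25 in Ctrl libraries: it had 107 TPM there, whereas in Ctrl 1, 2 and 3 Snap25 had 3.82, 0 and 8.59 TPM and Dbh 10.1, 12.4 and 15.8 TPM. Over Ctrl 1 to 3 Dbh was highest with a mean level of 12.8 TPM, and Npy, Slc18a2, Snap25 and Ddc had 5.94, 5.55, 4.13 and 2.03 TPM. Over all libraries Slc6a2, Th and Phox2a were below these in both groups, at 0.660, 0.603 and 0.364 TPM in CKO and 1.42, 1.23 and 0.539 TPM in Ctrl. Among the 5 highest genes, neighbours in either order differed by less than the larger of their SDs, whereas Slc6a2 lay below the fifth gene by more than that in both groups. TPM spreads reads over the whole transcript, so the levels of genes covered at the end alone are averages over bases that are mostly without reads.

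Of 20 genes for the cofactor, breakdown, storage and peptide processing of noradrenergic vesicles, 16 were tested and 1 was lower in CKO, beside 2.80% of all tested genes called in either direction. This was Pam, which amidates peptides and is abundant in atrial muscle, at 2849.7 ± 539 CPM in CKO and 5874 ± 954 CPM in Ctrl (log2 fold change -1.04, SE 0.17, adjusted p = 0.00799). The median of the list was -0.27, against -0.03 over all tested genes, and 0.01 without Ctrl 4. Genes that supply tetrahydrobiopterin, the cofactor of Th, did not pass: Gch1 averaged 10.9 ± 1.27 CPM in CKO and 9.55 ± 1.69 CPM in Ctrl (adjusted p = 0.552). Monoamine oxidase A, Maoa, which breaks down noradrenaline, averaged 38.0 ± 3.71 CPM in CKO and 28.4 ± 3.22 CPM in Ctrl (adjusted p = 0.0703). Pnmt, which turns noradrenaline into adrenaline, averaged 1.90 ± 0.874 CPM in CKO and 2.40 ± 0.702 CPM in Ctrl (adjusted p = 0.676).

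Of 11 transcription factors of autonomic neurons 5 were tested, and 1, Hand2, was higher in CKO. Hand2 acts in sympathetic neurons and in heart tissue, and had 33.5, 29.0, 32.7, 15.5, 22.8 and 19.8 CPM in CKO 1 to 6, and 9.72, 13.8, 9.22 and 11.8 CPM in Ctrl 1 to 4 (log2 fold change 1.20, adjusted p = 0.0210). It missed the threshold in 6 of 23 alternatives, among them without Ctrl 1 (log2 fold change 1.14, adjusted p = 0.0811) and without Ctrl 4 (1.23, adjusted p = 0.0611), while its log2 fold change stayed between 0.95 and 1.32 in all 23. Its order over the libraries was not that of Snap25, since CKO 1 was high for Hand2 and lowest of the CKO libraries for Snap25. Gata2 and Isl1 had log2 fold changes of -0.04 (adjusted p = 0.967) and -1.36 (adjusted p = 0.413).

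In edgeR general neuronal genes gave 0 calls among 18 tested, the release machinery 0 among 22, cholinergic genes 0 among 8, peptides and their receptors 0 among 4, and growth factors and receptors of neurons 0 among 16. At an unadjusted p under 0.05 these lists held 2, 3, 2, 1 and 3 genes, and DESeq2 called 0, 1, 0, 1 and 2. The median log2 fold changes of these lists were -1.07, -0.53, -0.93, -0.60 and -0.21, and without Ctrl 4 they were 0.41, 0.04, 0.12, -0.15 and 0.13. Among the growth factors and receptors Cntf was lower in CKO without overlap, at 2.35 ± 2.15 CPM against 13.5 ± 1.77 CPM (log2 fold change -2.51, edgeR adjusted p = 0.126). Nrp1 was higher in CKO without overlap (log2 fold change 0.48, edgeR adjusted p = 0.0631). Of all tested genes 5.72% had no overlap. For the 6 tested genes described here the median was -1.13, with all 6 below 0, against 53.4% of all tested genes. Without Ctrl 4 it was -0.25, with 4 of 6 below 0, against a median of -0.01 over all tested genes, so these medians rested on 1 library. Of 17 tested glial genes 1, Kcna1, was lower in CKO. This potassium channel gene, which is not limited to glia, averaged 8.09 ± 3.16 CPM in CKO and 20.7 ± 7.09 CPM in Ctrl (edgeR adjusted p = 0.0411). That call was lost in 15 of 23 alternatives, while the log2 fold change, -1.35 with all libraries, stayed between -1.54 and -1.11. The glial genes summed to 569 to 715 CPM in CKO and 520.2 to 815 CPM in Ctrl libraries. Of the 6 sensory neuron genes 1 was tested and 0 were called by edgeR, though it passed in DESeq2 and at an unadjusted p under 0.05. Of fat cell, airway and lymphoid genes 8, 6 and 3 were tested, with 0 calls by edgeR in each list, with 2, 0 and 0 genes at an unadjusted p under 0.05, and with 1, 0 and 0 called by DESeq2. Their median log2 fold changes were -0.85, 0.04 and -1.59, and without Ctrl 4 they were -0.92, -0.37 and -0.40. Of the 8 fat cell genes 7 were below 0 both with and without Ctrl 4. The part of fat in the levels described here was not tested.

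The authors' deposited table holds 3 of the 8 genes and also compares the vein region with the left atrial appendage, whose own libraries were not used here. In the authors' deposited table Dbh was lower in CKO in the vein region (log2 fold change -2.02, false discovery rate 5.22e-08) and in the appendage (-2.82, false discovery rate 1.15e-05), and higher in the vein region than in the appendage (2.43, false discovery rate 5.13e-10). The table lists Slc18a2 in the authors' deposited comparison at -0.26 in the vein region (false discovery rate 0.737) and at -0.93 in the appendage (false discovery rate 9.69e-05). For Snap25 the authors' deposited table gives -1.43 in the vein region (false discovery rate 0.511), 0.00 in the appendage (false discovery rate 1.00), and 10.76 for the vein region over the appendage (false discovery rate 6.99e-08). Of the 13646 genes of the authors' deposited table, 2.47% passed 0.05 as lower in CKO in the vein region, 17.9% as lower in CKO in the appendage, and 8.19% as higher in the vein region. These comparisons may share libraries, and the table does not state which entered each. Dbh thus passed in all 3 comparisons of the authors' deposited table. A fold change of 0.00 with a false discovery rate of 1.00 is what a gene with hardly any counts gives, so the authors' deposited values of Snap25 say nothing of a change in the appendage, and the size of its regional fold is not to be read as exact.

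The genes whose level over the 10 libraries was most like the mean of the 6 tested genes, on standardised log2 CPM among 17491 genes, were Gm15513, Vti1a, Ccdc82, Faap20, 1700029I15Rik, Casc3, 4933423P22Rik, Gm17815, Ggt7 and Gm38255, with r between 0.90 and 0.95. Vti1a, a fusion protein of the Golgi and endosomes, had 27.3 to 32.2 CPM in CKO and 29.0 to 35.2 CPM in Ctrl libraries. Each of the 10 genes was highest in Ctrl 4 or Ctrl 3. These genes were picked from the 17491 by r itself, over 10 libraries, so their r is not a test. The mean they resemble joins 6 genes, of which only Ddc, Npy and Snap25 were correlated with each other after adjustment.

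RefSeq promoters of GRCm38, from 250 bases before to 50 after the start, were at hand for 6 of the 8 genes, with 2 for Ddc. The cAMP response element TGACGTCA, searched on both strands, was in those of Th and Slc18a2, and in 1.79% of 32851 promoters. The E-box CACCTG was in that of Th and in 20.2% of promoters. The T-box letters GGTGTGA were in 3.98% of promoters but in none of these 7 windows. The 2 spaced pairs of homeodomain core letters were in 0.265% and 2.98% of promoters, and also in none of the 7. The window of Dbh, chr2:27165257-27165556, lay within exon 1 of the Dbh transcript described above, chr2:27165233-27165866. For Dbh no base before that exon was therefore searched.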

How the data were processed

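RNA from 10 peri-pulmonary vein samples was analysed, grouped by genotype from the sample labels. Per the labels' protocols ribosomal RNA was removed with Ribo-Zero and libraries were made with a TruSeq kit, although polyA RNA is given as the molecule. Nothing says whether samples shared litters, so p-values measure the spread between these mice. The submitters' processing notes name TopHat2 2.1.1, mm10, StringTie 1.3.3, edgeR 3.18.1 and limma 3.32.10. Per the file headers StringTie estimated only annotated Ensembl release 94 transcripts.

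The gene table deposited by the authors holds whole-number expected counts, not normalised: a gene's value could be rebuilt from its transcripts' coverage, length and a read length of 50, exactly for 54525 of 54532 genes and within 1 count for all. Coverage (a signal in mean reads per base) and TPM come from the transcript files that the authors deposited. The authors' deposited comparison table gives log2 fold changes with p-values and false discovery rates as the authors computed them. The gene table also has 10 columns of other samples, not used here.

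Counts were tested with edgeR 4.0.16 in R 4.3.3 (filterByExpr, TMM, quasi-likelihood F test, genotype as the only term) over 17752 genes with Benjamini-Hochberg adjusted p-values and a cut-off at 0.05, and the same script was tested on simulated data. Each SE is the log2 fold change divided by the root of F. CPM uses TMM-scaled totals. Intervals and limits from counts cover counting error only. Exon values were compared by exact permutation tests, and correlations by 100000 permutations. Alternatives were DESeq2 1.42.0, limma 3.58.1, other scalings, no filter, a replicate block, covariates and leaving out libraries. The genes, the 15 other lists and the rule for named genes (up to 4 called genes of a list, or the 2 highest where none was called, and the 10 most alike) were chosen with earlier results of these data known. Genes named beside that rule, such as Maoa, Gch1, Pnmt, Gata2 and Isl1, were picked for their role after their values were seen. Cntf was picked for its lack of overlap.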

Additional observations from a re-analysis of the deposited data

Results flagged for a closer look

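In 6 of 16 groups of samples, each group being a gene in a genotype, a library stood far from the rest. For independent, normally distributed values chance gives about 1 in 20 such groups, a rate that does not apply here, since several libraries are at 0 and the genes vary together. Ctrl 4 was the library in 4 of them: Th at 3.99 CPM, against 0 in the other Ctrl libraries, Ddc at 24.4 CPM, against 0.983 to 4.11 CPM, Phox2a at 1.33 CPM, against 0.106 to 0.111 CPM, and Snap25 at 91.8 CPM, against 0 to 10.1 CPM. In CKO libraries Th stood apart in CKO 4 at 2.12 CPM, against 0 to 0.659 CPM, and Phox2a in CKO 3 at 1.10 CPM, against 0 to 0.210 CPM. Dbh, Slc6a2 and Slc18a2 had no such library in either genotype.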

How the results depend on the processing

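Dbh kept its direction and its call in all 23 fits across all genes. The number of genes called was 497 in the fit reported, 1132 with DESeq2, 51 with a replicate block on the 8 libraries numbered 1 to 4, 234 with the same libraries and no block, 246 with the glial level as a covariate, and 190 to 607 without each library in turn. Same-numbered libraries had correlated deviations of 0.0453, 0.116, -0.377 and 0.0959, so the numbers were not taken to pair animals, and under the block Dbh was at -1.92. The number of the 8 genes called was 1 in the fit reported, 2 with DESeq2, which added Slc6a2, and 1 without each library in turn. Over its exons before the last Dbh did not pass, at -3.38 with all libraries and -1.91 without Ctrl 4.

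Signs turned for genes that were not called. Ddc was at 0.09 with limma-voom, 0.70 with the replicate block, -1.09 to 1.20 without each library in turn (1.20 without Ctrl 4), 1.64 with the glial and 0.50 with the neuronal covariate. Snap25 was at 0.91 with limma-voom, 0.61 with limma on log2(TPM + 0.1), 0.15 with the block, -1.81 to 1.06 without each library in turn (1.06 without Ctrl 4), 1.77 with the glial and 0.50 with the neuronal covariate. Npy was at 0.31 with the glial covariate, and Slc18a2 at 0.24 over the exons before the last. The cause was not tested, except that leaving out Ctrl 4 removes the highest library. Counts of 0 were listed for Th, Phox2a, Npy and Snap25 in 6, 1, 4 and 1 libraries, and at these depths a change in Th or Phox2a could not be tested.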
